A study of Mus musculus with 8 samples.

Results

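Oct4 (gene symbol Pou5f1), Sox2 and Nanog were followed in mouse embryonic stem (ES) cells that were left untreated or were given retinoic acid (RA) for 72 h. The members are the 3 of 36406 gene names on the array that read Pou5f1, Sox2 or Nanog, and 4 of the 55681 probes that are not controls carry these names. Pou5f1 and Sox2 have 1 probe each and Nanog has 2, each printed as 1 spot of 60 letters. RA treatment left 2.16% of the Pou5f1 signal, 16.8% of the Sox2 signal and 4.27% of the signal of the brighter Nanog probe. The other Nanog probe was dim in both conditions and did not pass the test. With Nanog taken by its bright probe, the fall was largest for Pou5f1 and smallest for Sox2 among the 3 genes.

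Pou5f1, Sox2 and Nanog encode transcription factors that hold ES cells in the pluripotent state. Oct4 has a POU domain that reads an octamer sequence, Sox2 has an HMG box and often binds beside Oct4 on the same stretch of DNA, and Nanog is a homeodomain protein. The factors bind the regulatory regions of one another and of many shared target genes, and Sox2 is also expressed in neural progenitor cells. RA acts through nuclear receptors that bind repeats of a short sequence, and several orphan nuclear receptors are known to bind the control region of Pou5f1.

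The cells were E14Tg2A.4, an established mouse ES cell line, with 4 biological replicates of each condition, so that 8 arrays of 1 colour (Cy3) were compared. RA was all-trans retinoic acid at 1 µM, given in medium without the cytokine LIF, which supports ES cell self-renewal. The medium of the untreated cells was not given in the sources used here, so the parts of RA and of a lack of LIF cannot be told apart. Between 56.7% and 62.7% of the 59305 spots that are not controls were well above background on each array, and no spot was saturated. Each of 2 slides carried 2 arrays of each condition. All 6 genes of a list that checks the ES cell label (Tdgf1, Fgf4, Esrrb, Utf1, Zfp42 and Dppa5a) were well above background on every untreated array, and all 6 were called lower after RA. Levels are log2 intensities relative to the 75th percentile of the array, so 0 is the level of that percentile, and a difference of 1 is a 2-fold change. A probe was called when its adjusted p was under 0.05 and its change was over 1.5-fold, and 21.6% of all probes were called lower and 12.9% higher. These were 12044 probes lower and 7196 higher, against 8704 and 8152 with quantile normalization, 8827 and 5442 with normexp background correction, and 6575 and 6271 in the authors' processed values. The median change of all probes was -0.28, and near 0 (-0.0026) after quantile normalization.

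The letters on the array and the promoter sequences are given first, since the values below are those of these letters. The promoters are among the places where the factors and the RA receptors could bind. The Pou5f1 probe (A_51_P202340, transcript NM_013633) lies at chr17:35647280-35647340 of mm9, the build of the array files, and starts at base 903 of its transcript. Capitals mark the 25 letters that it shares with a probe of another name.
Pou5f1 probe: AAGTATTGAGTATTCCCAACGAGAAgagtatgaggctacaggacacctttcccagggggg
The Sox2 probe (A_52_P307739, NM_011443) lies at chr3:34550773-34550832 and starts at base 1846. The bright Nanog probe (A_55_P2007708, ENSMUST00000012540) lies at chr6:122664590-122664649 and starts at base 2149, and the dim one (A_55_P2007699, NM_028016) lies at chr6:122663676-122663735 and starts at base 1235. Of these probes the last 30 letters are shown, with capitals for letters that lie in a run of at least 16 letters shared with a probe of another name on either strand.
Sox2 probe, last 30 letters: GAGAATTTGCCAATAtttttcgaggaaagg
Nanog bright probe, last 30 letters: ttaaacaaaataaaacactaattttacctt
Nanog dim probe, last 30 letters: CAGAAGAGGGCGTCAGATCTtgttacgtat
No annotation of mm9 was used here, so the exon or untranslated region of each probe was not assigned.

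The promoter windows come from RefSeq on GRCm38.p6, and the 250 bases before the annotated start are shown for 1 start of each gene. Capitals mark matches, on either strand, to the octamer ATGCAAAT or its first 7 letters, to the Sox letters CATTGT or CTTTGT, and to the nuclear receptor core letters AGGTCA.
Pou5f1 promoter, chr17:35505782-35506031, plus strand: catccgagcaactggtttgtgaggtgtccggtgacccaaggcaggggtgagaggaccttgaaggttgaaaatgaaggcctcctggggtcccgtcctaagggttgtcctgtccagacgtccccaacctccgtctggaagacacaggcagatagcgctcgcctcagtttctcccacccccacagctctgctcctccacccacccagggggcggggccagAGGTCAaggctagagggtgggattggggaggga
Sox2 promoter, chr3:34649745-34649994, plus strand: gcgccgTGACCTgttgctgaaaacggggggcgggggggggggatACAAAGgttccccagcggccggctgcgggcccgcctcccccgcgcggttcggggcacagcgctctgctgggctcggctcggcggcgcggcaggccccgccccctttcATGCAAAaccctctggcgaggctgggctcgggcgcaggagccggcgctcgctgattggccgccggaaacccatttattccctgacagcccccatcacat
Nanog promoter, chr6:122707239-122707488, plus strand: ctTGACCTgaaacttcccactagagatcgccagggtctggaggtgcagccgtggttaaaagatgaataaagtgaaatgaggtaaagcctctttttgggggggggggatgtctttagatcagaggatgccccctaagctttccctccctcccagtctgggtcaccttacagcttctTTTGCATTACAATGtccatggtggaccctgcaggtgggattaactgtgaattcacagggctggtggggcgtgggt
In the Nanog window the Sox letters and the first 7 letters of the octamer stood side by side, CATTGT with 1 letter between it and ATGCAAA on the minus strand, 62 to 75 bases before the start. This arrangement was found in 2 of the 32851 promoter windows of the table (0.0061%), and both belong to Nanog, whose 2 annotated starts share it. The letters searched follow the form known for Oct4 and Sox2 sites in ES cell genes, so the match is a description. The Sox2 window held the octamer's first 7 letters 93 to 99 bases before the start, as 4.12% of windows did, and CTTTGT, as 16.5% did. The window of the first Pou5f1 start held neither, and the window of its second start held CATTGT, as 10.69% did. The full octamer occurred in 1.601% of windows and in none of the members'. AGGTCA stood 28 to 33 bases before the first Pou5f1 start, and it was also in the Sox2 and Nanog windows shown and in 14.02% of all windows. Direct repeats of AGGTCA with 1, 2 or 5 letters between, the forms that RA receptors are known to bind, occurred in 11, 3 and 3 windows and in none of the members'. Only exact letters in these 250 bases were searched, so sites further away or with other letters would have been missed.

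Pou5f1, the gene of Oct4, stood at 5.77, 5.68, 5.29 and 6.004 in untreated replicates 1 to 4. After RA it stood at 0.39, 2.05, -0.68 and -1.16. Every RA array was below every untreated array, as held for 23.8% of all probes, and the RA arrays were spread far more widely than the untreated ones. The means were 5.69 ± 0.30 (SD, n = 4) untreated and 0.15 ± 1.42 (SD, n = 4) after RA, a log2 difference of -5.54 with an SE of 0.61 and a 95% interval from -6.93 to -4.14 (limma, adjusted p = 0.000152). Of the 55681 probes, 137 (0.246%) fell by more. The spot was still well above background on all RA arrays, at 17.4 to 114 times its local background before subtraction.

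The Pou5f1 letters are not wholly its own. A probe that the array names only by its identifier, A_55_P2129498, shares 25 letters with it and stood at 3.08 to 3.68 in untreated cells. After RA that probe stood between -3.69 and -0.67, and its log2 difference was -5.80 with an SE of 0.60 (adjusted p = 0.000103). How much of either signal came from transcripts that both probes can bind was not tested.

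Sox2 was the most even of the 3 genes among arrays. It stood at 4.43, 4.20, 4.37 and 4.57 in untreated replicates 1 to 4 and at 1.67, 2.31, 1.64 and 1.63 after RA. The conditions did not overlap, and 3 of the RA arrays lay close together while RA replicate 2 was higher. The log2 difference was -2.58 with an SE of 0.19 and a 95% interval from -3.01 to -2.14 (adjusted p = 1.93e-05), from means of 4.39 ± 0.15 (SD, n = 4) and 1.81 ± 0.33 (SD, n = 4). Of all probes, 1937 (3.48%) fell by more.

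Nanog was measured by a bright probe that fell and by a dim probe that did not. The bright probe stood at 5.73, 6.11, 5.56 and 5.37 in untreated replicates 1 to 4 and at 1.33, 2.69, 0.52 and 0.03 after RA. As with Pou5f1, the conditions were far apart and the RA arrays were spread out. Its log2 difference was -4.55 with an SE of 0.51 and a 95% interval from -5.72 to -3.38 (adjusted p = 0.000167), and 376 probes (0.675%) fell by more. The means were 5.69 ± 0.32 (SD, n = 4) and 1.14 ± 1.16 (SD, n = 4).

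**Figure D1:**
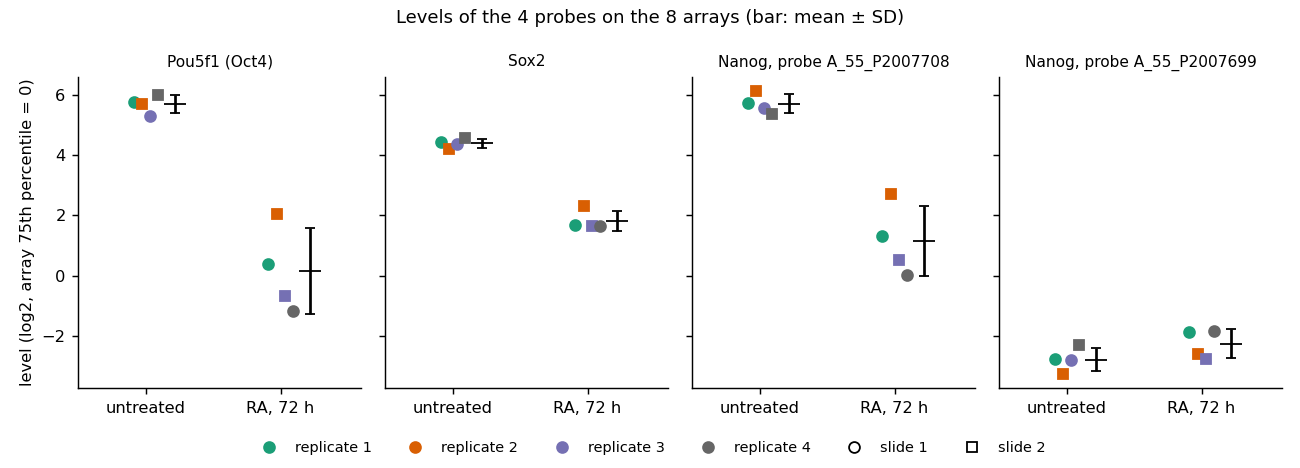
Levels of the Pou5f1, Sox2 and both Nanog probes (y axis, log2 relative to the array's 75th percentile) on the 4 untreated and 4 RA arrays, with colour for the replicate number, shape for the slide, and bars for the mean ± SD. The RA arrays of Pou5f1, Sox2 and the bright Nanog probe all lie below the untreated arrays, while those of the dim Nanog probe, A_55_P2007699, overlap them.

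The share of signal left was uneven between the RA arrays. Of the untreated mean, Pou5f1 kept 2.54% on RA replicate 1, 8.05% on replicate 2, 1.22% on replicate 3 and 0.868% on replicate 4. The bright Nanog probe kept 4.85%, 12.5%, 2.77% and 1.97% on the same arrays. Sox2 kept 15.2%, 23.7%, 14.8% and 14.8%. RA replicate 2 kept the most of all 3 genes, and RA replicate 4 the least. Averaged over the RA arrays, 3.17% ± 3.33 (SD, n = 4) of Pou5f1 and 5.52% ± 4.81 (SD, n = 4) of Nanog was left, and without RA replicate 2 these means were 1.54% and 3.20%. For Sox2 the mean was 17.1% ± 4.37 (SD, n = 4), and 14.9% without that array. Set against the untreated array of the same number, the shares ranged from 0.696% to 8.09% for Pou5f1, from 13.1% to 27.1% for Sox2 and from 2.47% to 9.34% for Nanog.

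The high values on RA replicate 2 were shared by other genes that fell. It held the highest of the 4 RA values for 27 of the 32 genes called lower in the lists of network factors and target genes described below, and for 45.8% of the 7613 probes called lower that were well above background on all arrays. Spots that neighbour those of Pou5f1 on RA replicate 2 differed from their own condition means by a median of -0.01. In bulk RNA, fewer cells that express a gene and less of its RNA in each cell cannot be told apart.

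**Figure D2:**
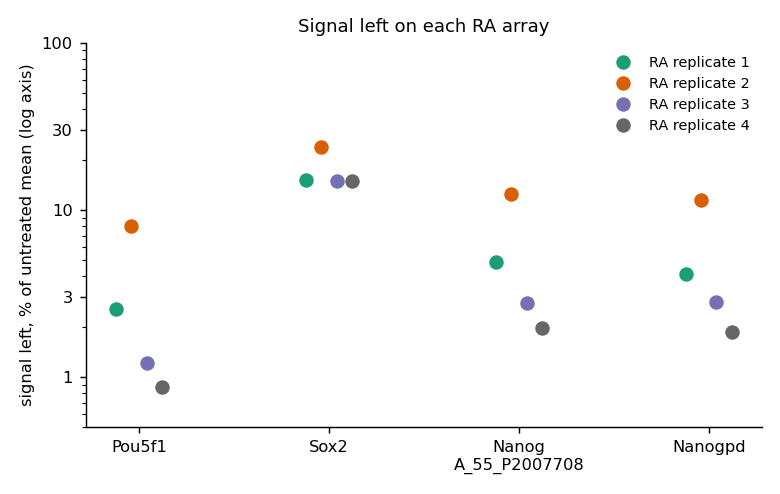
Signal left on each RA array (y axis, percent of the untreated mean, log axis) for Pou5f1, Sox2, the bright Nanog probe and the Nanogpd probe, with colour for the RA replicate. RA replicate 2 is highest for each, at 8.05% for Pou5f1, 23.7% for Sox2 and 12.5% for Nanog.

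In each pair of the 3 genes, the difference between the genes on the RA arrays did not overlap that on the untreated arrays. Pou5f1 fell further than Sox2 by 2.96 on the log2 scale, as the difference Pou5f1 minus Sox2 changed by -2.96 with RA, and by -1.74 to -4.23 between same-numbered arrays. The change of Sox2 minus Nanog was 1.97, and 1.53 to 2.41 between same-numbered arrays. Pou5f1 minus Nanog changed by -0.98, and by -0.21 to -1.82 between same-numbered arrays, with SDs of that difference of 0.47 untreated and 0.26 after RA. The exact two-sided permutation p was 0.0286 for each of the 3 pairs, which is the smallest that 4 against 4 arrays allow, and 0.0286 after adjustment over the pairs. Within slide 1 and slide 2 the changes were -3.17 and -2.75 for Pou5f1 minus Sox2, 2.22 and 1.73 for Sox2 minus Nanog, and -0.95 and -1.02 for Pou5f1 minus Nanog. With the replicate number as a block, the smallest p that 4 pairs allow is 0.125, and each of the 3 pairs of genes had it (exact sign-flip test). Where the mean of both Nanog probes stood for Nanog, Sox2 minus Nanog turned to -0.56 and Pou5f1 minus Nanog became -3.52, so how Nanog stood to the other genes rested on its bright probe. With 1 array left out, p was 0.0571 for Pou5f1 minus Sox2 and Sox2 minus Nanog without any 1 of the untreated arrays, and for Pou5f1 minus Nanog without untreated replicate 4, RA replicate 3 or RA replicate 4, and 0.0286 otherwise.

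The slides gave the same direction for the 3 genes. On slides 1 and 2 the log2 difference was -5.92 and -5.15 for Pou5f1, -2.75 and -2.41 for Sox2, and -4.97 and -4.14 for the bright Nanog probe. Each was called within its slide (adjusted p from 0.00323 to 0.0139), where 2 arrays faced 2, and with the slide as a block (adjusted p from 5.60e-05 to 0.000315).

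The dim Nanog probe gave another picture of the same gene. It stood at -2.76, -3.26, -2.81 and -2.31 in untreated replicates 1 to 4 and at -1.87, -2.58, -2.77 and -1.83 after RA. The conditions overlapped, although the spot was well above background on all 8 arrays, and RA replicate 2 was not the highest RA array. Its log2 difference was 0.52 with an SE of 0.28 and a 95% interval from -0.12 to 1.16 (adjusted p = 0.185), and it was 0.93 on slide 1 and 0.11 on slide 2. The change of the dim probe exceeded that of the bright probe by 5.07, and by 4.10 to 5.82 between same-numbered arrays (exact two-sided permutation p = 0.0286, the smallest possible). In a blocked sign-flip test over 4 pairs the exact p was 0.125, again the smallest possible, and within slides the difference was 5.90 and 4.25.

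Another probe of this stretch of DNA fell like the bright one. Nanogpd, a near-identical copy of Nanog, names the probe A_55_P2007703 at chr6:122663514-122663573, which the array file also lists under the Nanog transcript, so its signal cannot be assigned to either gene alone. The dim Nanog probe starts 162 bases after it and the bright one 1076 bases after it, so the dim probe lies between probes that fell. The Nanogpd probe stood at 2.44, 3.61, 2.85 and 2.66 in untreated replicates 1 to 4 and at -1.70, -0.24, -2.26 and -2.86 after RA. Its log2 difference was -4.65 with an SE of 0.52 (adjusted p = 0.000166), and 3.97% was left. Its change differed from that of the bright Nanog probe by -0.10, between -0.43 and 0.26 for same-numbered arrays (exact permutation p = 0.6). From that of the dim probe it differed by -5.18 (exact permutation p = 0.0286, and 0.0571 after adjustment over these added comparisons). The Nanogpd probe was compared after its values had been seen.

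The letters of the dim probe set it apart from the others as well. It shared a run of at least 16 letters with 13 probes of other names in the opposite orientation, up to 37 letters long, and with 1 in the same orientation, the Zfp872 probe. The Sox2 probe shared such a run with 1 other probe in the opposite orientation, the Pou5f1 probe with 1 in the same orientation, and the bright Nanog and the Nanogpd probes with none. The mouse Nanog transcript is known to carry a B2 repeat, a short interspersed element with very many copies in the genome, in its 3' untranslated region. Of the 13 probes, 12 stood above 6 on every array. The one with the longest shared run, A_55_P1985519, stood at 7.81 to 8.16 untreated and 7.51 to 7.70 after RA, a log2 difference of -0.42. The Zfp872 probe was not well above background on any array. The part of the shared letters in the disagreement of the Nanog probes was not tested.

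**Figure D3:**
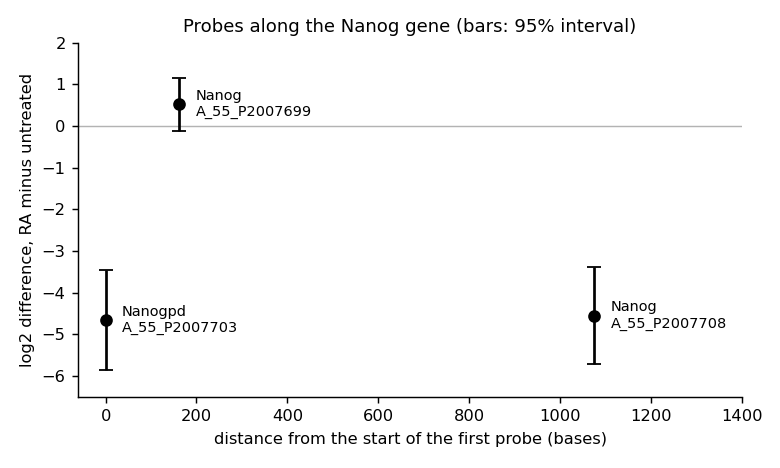
Log2 difference of RA minus untreated (y axis, with 95% intervals) for the 3 probes along the Nanog gene, by distance from the start of the first probe (x axis, bases). The Nanogpd probe at 0 and the bright Nanog probe at 1076 bases have -4.65 and -4.55, while the dim probe at 162 bases has an interval that includes 0.

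Among 12395 other genes with a current symbol that were detected on all arrays, a few followed each factor closely. Likeness was the root mean square difference of the 8 log2 values after each probe's mean was subtracted. The profile of Pou5f1 was most like those of Esrrb, an orphan nuclear receptor of the ES cell network (0.27), Tdh, threonine dehydrogenase (0.32), and Pipox, an enzyme of pipecolic acid breakdown (0.36). That of Sox2 was most like Epha2, an ephrin receptor (0.17), Klf5, a Krüppel-like factor (0.17), and Ckb, brain creatine kinase (0.18). That of Nanog was most like Rasgrp2, an exchange factor for small GTPases (0.28), Slco4c1, an organic anion transporter (0.29), and Utf1, a chromatin factor of ES cells (0.32). These genes were picked for a profile like that of a factor, so their own falls are no separate result. Between the factors themselves the same measure was 0.59 for Pou5f1 and Nanog, 1.16 for Sox2 and Nanog, and 1.64 for Pou5f1 and Sox2. The nearest genes are the lowest of 12395, so these values between fixed pairs cannot be weighed against theirs.

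Most of the listed factors that work with Oct4, Sox2 and Nanog fell with them. The lists here and below were chosen with earlier results of these data known, so their counts describe the listed genes only. Of 20 network factors, 19 were called lower and none higher, against 21.6% lower and 12.9% higher over all probes. Their median log2 difference was -2.98, against -0.28 for all probes. The largest falls were those of Otx2, a homeobox factor of the primed state and the anterior embryo (-6.49, SE 0.84), Nr0b1, an Oct4 partner and nuclear receptor without a DNA-binding domain of the usual kind (-6.14, SE 0.52), Esrrb (-5.75, SE 0.55) and Klf2 (-5.58, SE 0.44). Tcf7l1, a repressor at the end of the Wnt pathway, was the factor that was not called (-0.38, SE 0.23). Of 14 listed genes known as targets of the factors, 13 were called lower and none higher (21.6% and 12.9% over all probes). The median of these targets was -4.94. Tcl1, a cofactor of Akt kinase, changed by -6.94 (SE 0.54), Tdgf1, a Nodal co-receptor, by -6.30 (SE 0.50), Fgf4, a growth factor with a composite Oct4 and Sox2 enhancer, by -6.08 (SE 0.73), and Dppa3, a maternal factor that guards DNA methylation, by -5.998 (SE 0.54). Trim71, a ubiquitin ligase and let-7 target, was not called (-0.27, SE 0.18), but its other probe was called lower (-0.99, adjusted p = 0.0131).

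The relatives of Oct4 and Sox2 were called in shares near those of all probes. Of 13 POU and Sox genes, 2 were lower, 2 higher and 9 not called, with a median of 0.35, against 21.6% lower and 12.9% higher over all probes. Sox15, a Sox factor that ES cells also express, changed by -3.78 (SE 0.25), and Pou3f1, also called Oct6, by -1.92 (SE 0.47). Sox4 and Sox11, SoxC factors of progenitors and young neurons, changed by 2.38 (SE 0.22) and 1.95 (SE 0.23). The closest Sox2 relatives of the SoxB1 group were not called, with 0.42 (SE 0.33) for Sox1 and 0.51 (SE 0.41) for Sox3, which are given although the naming rule did not pick them.

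The nuclear receptors changed in both directions. Of 10 receptors that carry the RA signal or are known to bind the Pou5f1 control region, 4 were lower, 5 higher and Rara was not called (-0.65, SE 0.26). Over all probes, 21.6% were called lower and 12.9% higher. Nr2f1 and Nr2f2, the COUP-TF receptors known as repressors at the Pou5f1 promoter, rose by 7.43 (SE 0.30) and 6.94 (SE 0.35), and their relative Nr2f6 by 0.69 (SE 0.18). Nr6a1, the germ cell nuclear factor that represses Pou5f1 in differentiating cells, rose by 1.88 (SE 0.32). Rarb, an RA receptor and a classic RA target, rose by 7.21 (SE 0.40). Nr5a2, known as an activator of Pou5f1, changed by -4.57 (SE 0.26), Rarg by -2.73 (SE 0.17), Rxra by -1.30 (SE 0.23) and Rxrb by -0.80 (SE 0.19). A second Rxra probe was called in the opposite direction (0.79), so the direction for Rxra depends on the probe.

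Neural progenitor genes, of interest because Sox2 marks these cells too, were mixed. Of 12 genes, 5 were higher, 1 lower and 6 not called, against 12.9% higher and 21.6% lower over all probes. Their median was 0.47. Zic1, a zinc finger factor, changed by 4.14 (SE 0.34) on its brighter probe and by -2.08 on its other probe. Fabp7, a lipid carrier of radial glia, changed by 2.56 (SE 0.55) but was well above background on only 1 of the untreated arrays, so its size is uncertain. Nes, the intermediate filament nestin, changed by 2.10 (SE 0.16), and Ncam1, a cell adhesion molecule, by 1.74 (SE 0.35). Olig2, a bHLH factor, was well above background on 3 of the RA arrays and on none of the untreated ones, and was at least 1.76-fold higher after RA. Tubb3, neuronal tubulin, changed by -2.22 (SE 0.31). Among the genes not called, Msi1, an RNA-binding protein, had -0.44, while its other probe was called higher (1.39, adjusted p = 0.00532).

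Many markers of other cell types were also called higher after RA. For each count in this paragraph, the share over all probes was 12.9% higher and 21.6% lower. All 9 primitive endoderm genes were called higher, with a median of 3.05, led by the pioneer factor Foxa2 (5.03, SE 0.29), the adaptor Dab2 (3.82, SE 0.38), the basement membrane collagen Col4a1 (3.79, SE 0.26) and Gata6 (3.28, SE 0.31). Their summed level ran from 3.23 to 4.63 in untreated cells and from 6.20 to 6.56 after RA on the log2 scale. In untreated cells that sum was mostly Lama1, a laminin chain, at a mean of 3.69 (change 1.41, SE 0.33), with the other 8 genes at 0.06 or lower. Of 8 fibroblast genes, 6 were higher, namely Dcn (8.07, SE 0.32), Col3a1 (7.05, SE 0.33), Col1a2 (6.49, SE 0.33), Col1a1 (5.20, SE 0.72), Pdgfrb (2.66, SE 0.25) and Postn, which was not well above background in untreated cells and was at least 4.68-fold higher. Their summed level ran from 0.29 to 1.05 untreated and from 4.97 to 5.63 after RA, and Thy1 (-0.08, SE 0.42) and S100a4 (0.87, SE 0.44) were not called. The sum holds all 8 genes, and in untreated cells Thy1, at a mean of -0.05, was the highest of them, with the others at -2.25 or lower. Col3a1, and Hand1 of the next list, were well above background on 3 of the untreated arrays. Of 8 trophoblast genes, 5 were higher, namely Krt7 (5.84, SE 0.46), Hand1 (4.35, SE 0.51), Gata3 (4.33, SE 0.34), Cdx2 (3.02, SE 0.32) and Elf5, not well above background in untreated cells and at least 3.12-fold higher. Tfap2c, which is also expressed in ES and germ cells and stands in the array files as Tcfap2c, was lower (-2.26, SE 0.34), and Ascl2 (-0.68, SE 0.44) and Eomes (0.42, SE 0.68) were not called. The summed trophoblast level overlapped between conditions, at 4.71 to 5.07 and 4.54 to 5.10. In untreated cells that sum was mostly Tfap2c, at a mean of 4.59, with Ascl2 at 2.17 and the other 6 genes at -1.34 or lower. No share of any cell type was measured, and the part of such cells in the falls of the 3 factors was not tested.

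**Figure D4:**
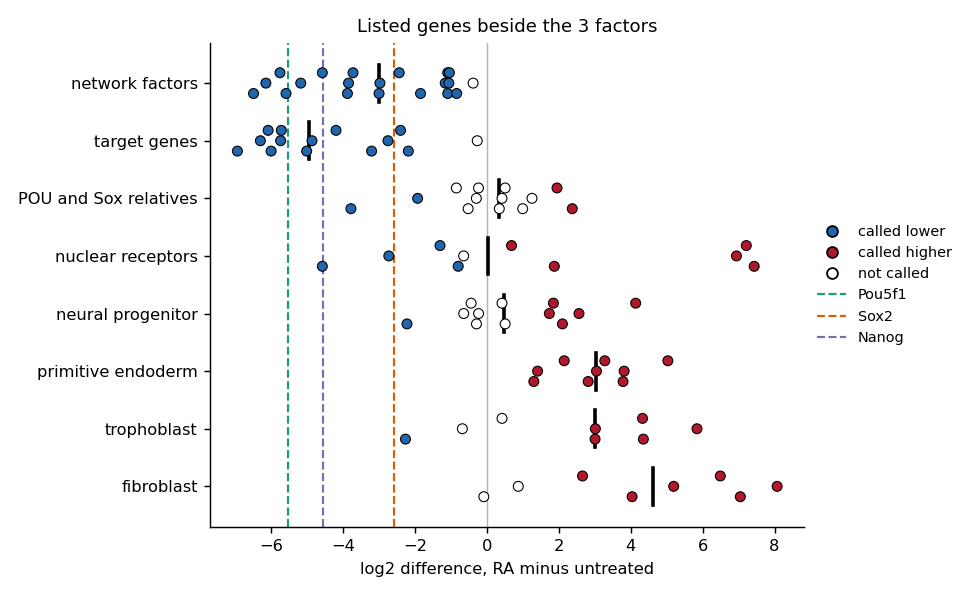
Log2 difference of RA minus untreated (x axis) for each gene of 8 lists, with blue for called lower, red for called higher, white for not called and a black bar for the list's median. Dashed lines mark Pou5f1 at -5.54, Nanog at -4.55 and Sox2 at -2.58, and the network factors and target genes lie on the same side of 0 as these.

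Within 100000 bases of the probe of each gene on mm9, 5 of 10 other probes were called lower and 2 higher around Pou5f1, 6 of 11 lower around Sox2 and 4 of 16 lower around Nanog, against 21.6% lower and 12.9% higher over all probes. The 4 around Nanog include the Nanogpd probe, and the 6 around Sox2 include A_55_P2185650, which was not well above background on any array. These counts were not tested. Near Pou5f1, Tcf19, a PHD finger gene whose probe lies 4257 bases away, changed by -0.88 (SE 0.12), and Psors1c2 by -2.68 (SE 0.35). Downstream of Sox2, where the long noncoding transcript Sox2ot overlaps the gene, 6 of 7 probes in the window were called lower, of which 3 carry 1 name on the array and lie close together. They are given by their identifiers, as the array names no gene. A_30_P01017966, which lies 25650 bases away, changed by -2.46 (SE 0.33) and A_55_P2371105, which lies 28791 bases away, by -3.14 (SE 0.34). A_55_P2114769, which lies 47696 bases away on the other strand, was not well above background on any RA array and was at least 15.3-fold lower. Near Nanog, Dppa3 lies 84383 bases away and fell as given above, while Slc2a3, a glucose transporter gene 13544 bases away, had 0.78 (SE 0.35, adjusted p = 0.118). These probes were chosen by position after the values had been seen.

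**Figure D5:**
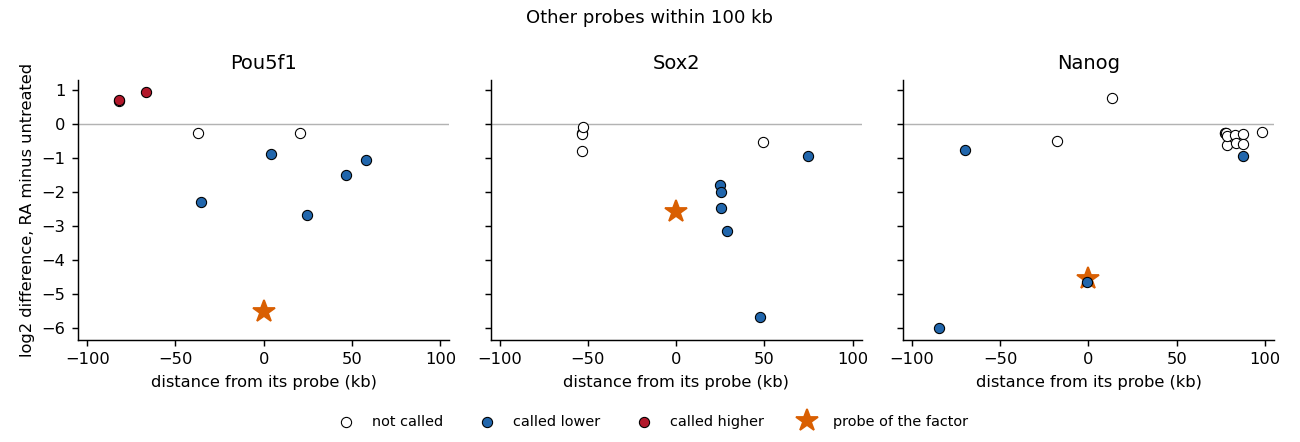
Log2 difference of RA minus untreated (y axis) for other probes within 100 kb of the Pou5f1, Sox2 and Nanog probes, by distance (x axis, kb), with stars for the factors themselves. Around Sox2 the other probes on both sides lie below 0, as does the median of all probes (-0.28), and those called lower are all downstream. Around Nanog only the Dppa3 and Nanogpd probes fall by more than 1.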

How the data were processed

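The 8 arrays were grouped by the sample labels, and the members and gene lists were chosen with earlier results of these data known. Per the file headers, the authors used Agilent Feature Extraction 10.7.3.1, and the deposited intensity of a spot had been corrected for background and trend within its array but not scaled between arrays. The deposited log2 values of the same spots share 1 distribution over the arrays, by a method not given in the sources used here. Processed intensities were put on a log2 scale in R 4.3.3 and each array was set to its 75th percentile over all spots but controls. Control spots (3671) and spots flagged as outliers were dropped, and spots of a probe were averaged. A linear model with moderated variance (limma 3.58.1) was fitted to all 55681 probes with Benjamini-Hochberg adjustment, and the thresholds (FDR 0.05, 1.5-fold) follow the methods. All adjusted p-values of single probes come from it. Each gene is given by its brightest probe over the 8 arrays. Differences between probes or genes were tested with exact permutation tests. Where no array of a condition measured a probe well above background, the fold is a bound against the dimmest signal that was. The fit was tested on simulated data.

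Same-numbered arrays deviated together over 27493 probes detected on all arrays (correlations of 0.186, 0.189, 0.104 and 0.151 for replicates 1 to 4), so the numbers of the labels were taken to pair the cultures. Some pairs with different numbers on a shared slide reached similar values, above that of replicate 3, 0.142 for untreated replicate 1 with RA replicate 4 and 0.130 for untreated replicate 4 with RA replicate 3. The number of arrays limits the precision. The text names every probe of the members, the 3 genes most like each, all receptors, and of each list all genes called in a direction if at most 6, otherwise the 4 with the largest change.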

Additional observations from a re-analysis of the deposited data

Results flagged for a closer look

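Among the groups of 4 arrays of the members and named genes, 118 in all, in 9 a single array stood apart by most of the range of its group, and chance gives about 1 in 20 (5.9). Sox2 stood at 2.31 on RA replicate 2, against 1.63 to 1.67 on the other RA arrays. Among the genes nearest to the factors, in their network or among the nuclear receptors, Utf1 stood at 5.80 on untreated replicate 3 (others 6.23 to 6.31), Zfp42 at 6.34 on untreated replicate 3 (others 6.56 to 6.58), Rxrb at 4.44 on untreated replicate 3 (others 4.96 to 5.04) and Klf5 at 4.67 on untreated replicate 4 (others 4.21 to 4.27). Among the marker genes, Pdgfrb stood at -2.46 on untreated replicate 2 (others -3.27 to -3.17), Postn at -2.22 on RA replicate 1 (others -3.87 to -3.74), Foxa2 at 0.00905 on untreated replicate 1 (others -1.04 to -0.91) and Cdx2 at -3.26 on untreated replicate 1 (others -3.80 to -3.74).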

How the results depend on the processing

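The falls of Pou5f1, Sox2 and the bright Nanog probe were called under every alternative run, with log2 differences from -5.54 to -5.23, -2.58 to -2.44 and -4.55 to -4.37 over other scalings, background corrections, blocks and thresholds. Leaving out each array in turn gave -6.17 to -5.10, -2.74 to -2.52 and -5.07 to -4.18. The dim Nanog probe stayed uncalled, at 0.33 to 0.66 and, with an array left out, 0.36 to 0.69. With the replicate block, which takes up the pairing, no call of a member changed (-5.54 for Pou5f1, -2.58 for Sox2, -4.55 and 0.52 for Nanog), and in the exact tests between probes or genes the values were 5.07, -2.96, -0.98 and 1.97 with p = 0.125 throughout, the smallest possible. Sox2 minus Nanog reversed to -0.56 with the mean of both Nanog probes, by the dim probe's share in that mean, and Pou5f1 minus Nanog became -3.52. With an array left out these differences ran from 4.56 to 5.70, -3.43 to -2.58, -1.13 to -0.77 and 1.66 to 2.32. The exact p was then 0.0286 for the Nanog probes, and rose to 0.0571 for Pou5f1 minus Sox2 and Sox2 minus Nanog without any 1 of the untreated arrays and for Pou5f1 minus Nanog without untreated replicate 4, RA replicate 3 or RA replicate 4. Over all probes, 6603 were lower with normexp and quantile normalization, 6575 in the authors' processed values, and 5728 lower and 4171 higher when tested against 1.5-fold, and the cause was not tested beyond the stricter test of the last. Of the POU and Sox relatives 1 was lower by that test, and 2 neural progenitor genes were lower without untreated replicate 3, against 1 with any other array left out. Over the alternative runs, 15 to 19 network factors and 13 to 14 target genes were called lower. Those called higher were 8 to 9 primitive endoderm, 4 to 5 trophoblast and 4 to 5 neural progenitor genes. Of the 3 genes most like each factor, all were among the nearest 10 after quantile normalization. Where no array of a condition measured a probe well above background, its change is only bounded, and where some arrays did, the fitted change is given.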
